A study of Mus musculus with 2 samples.

Results

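Many of the genes described here encode proteins that place, remove or bind methyl groups on histone lysines. Others, such as Phf5a, Setd3 and Kdm8, are known for other roles and are in the set by their symbols. All were chosen by symbol from the RefSeq gene models of mm10. The rule took protein-coding genes outside chromosome Y with symbols of the Kmt, Setd, Kdm and Phf series. It also took Ezh1, Ezh2, Ing1 to Ing5, Ash1l, Ash2l and Wdr5. This gave 65 genes among 21627 protein-coding genes on the autosomes and chromosome X. They were sorted into 21 SET-domain genes and H3K4 complex subunits, 19 demethylase genes and 25 ING and PHF genes. Phf2 and Phf8 were placed with the demethylase genes. Each gene was read through the H3K4me3 peaks over its model, extended by 1 kb at each side. The symbols fixed the membership, but the set was proposed with peak values of these data in view, so the values below are a description and carry no test.

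Chromatin from sorted NOS1+ enteric neurons of the mouse small intestine was immunoprecipitated for trimethylation of histone H3 at lysine 4 (H3K4me3) and sequenced. There was 1 H3K4me3 library and 1 input chromatin library, no second condition and no replicate. The labels give no strain, age, sex or treatment, nor how many animals were pooled or how the cells were sorted. The authors' deposited list held 29924 peaks, each with a position and a score, and the depth of the libraries is unknown.

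Methyl marks on histone tails are written by SET-domain enzymes, removed by flavin-dependent and JmjC demethylases, and bound by small folds such as the PHD finger. The SETD1 and KMT2 enzymes write H3K4 methylation in complexes built on WDR5 and ASH2L, and the KDM5 enzymes remove H3K4me3. ING proteins and several PHF proteins bind H3K4me3 and carry acetyltransferases, deacetylases or remodellers to it. The mark read in this library is therefore the substrate or the product of many of the proteins whose genes are described. A peak at a gene shows the mark on its chromatin and is no measure of its RNA or protein.

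The sort was checked against marker genes. An end of the gene model was marked at 7 of 8 neuronal genes, among them Map2 with a highest score of 102 and Snap25 with 11.6. Nos1 had none at an end and a single peak of 183 bp (score 13.0) inside its model. Peaks at an end also lay at 3 of 4 enteric glial genes, 4 of 4 smooth muscle genes, 1 of 3 interstitial cell genes and 2 of 3 epithelial genes, where 62.1% of all protein-coding genes have one. Sox10, a glial gene, had 6775 bp (score 85.9), and no smooth muscle gene scored above 32.6. None lay at an end of the 2 endothelial or the 3 leukocyte genes checked. Marks at genes of other cell types were thus present in the library, and their part in the values below was not tested.

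Almost every one of the 65 genes carried H3K4me3. A peak lay over 63 of them (96.9%, exact 95% interval over genes 89.3 to 99.6%), against 67.8% of all protein-coding genes. A peak lay within 1 kb of an end of the model at 60 genes (92.3%, interval 83.0 to 97.5%), against 62.1%. The 21 SET-domain and subunit genes and the 19 demethylase genes all had a peak over the model, and 23 of the 25 ING and PHF genes did. The intervals cover the counting of genes only and say nothing of other libraries.

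The peaks were wide and highly scored within this list. Over the 63 genes the median width of the widest peak was 2018 bp, with quartiles at 1533.5 and 2681 bp. Over all 14657 genes with a peak it was 1515 bp, with quartiles at 1064 and 2038 bp. The highest score per gene had a median of 196, against 153. Of the 63 genes, 30 were wider than 2038 bp, as were 24.9% of all genes with a peak. The limit that 10% of all genes with a peak exceed was passed by 16 of the 63. A highest score above 193 was held by 32 of the 63, against 25% of all genes with a peak, and 51 stood at or above the overall median score, against 50%. By group the median width was 2218 bp for SET-domain and subunit genes, 2077 bp for demethylase genes and 1910 bp for ING and PHF genes.

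**Figure D1:**
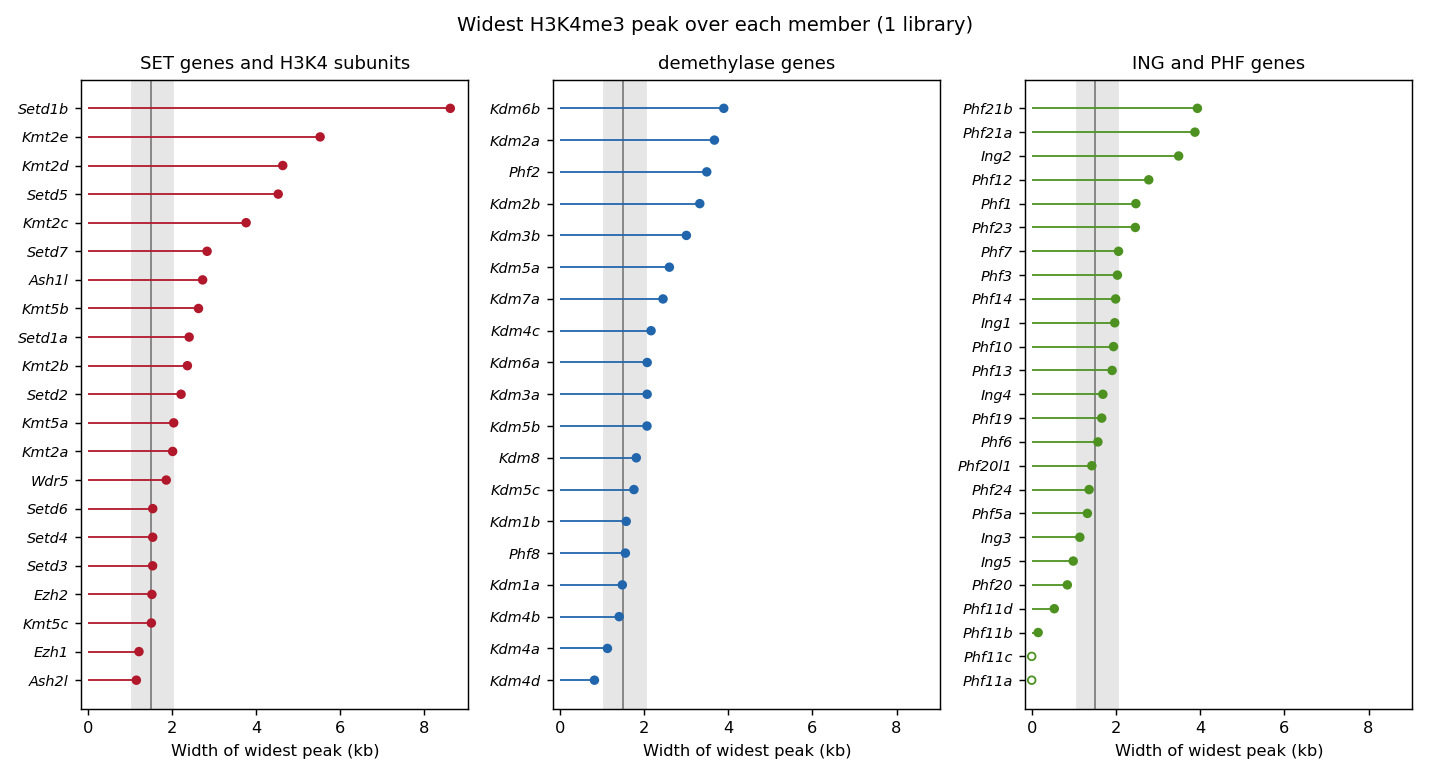
Width of the widest H3K4me3 peak over each of the 65 genes in 1 library, in kb, by group. Open circles mark genes with no peak, the vertical line is the median of all protein-coding genes with a peak (1515 bp) and the band their interquartile range (1064 to 2038 bp); Setd1b stands at 8613 bp, and Phf11a and Phf11c have no peak.

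These genes were long, with a median model of 44021 bp against 17330 bp for all protein-coding genes, and a long model meets more peaks. Among protein-coding genes in the longest of 3 equal length classes, 85.6% had a peak over the model and the median width was 1616 bp. The 39 members of that class all had one, with a median of 2077 bp. In the shortest class 44.4% of all genes and 8 of 8 members had one, with medians of 1426 bp and 1941 bp. In the middle class the shares were 73.3% of all genes and 16 of 18 members.

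Width and score were only loosely related among these genes. Spearman's rho between the widest width and the highest score was 0.15 over the 63 genes and 0.45 over the 14657 genes with a peak. These are descriptions across genes of 1 library, and wide and strong peaks come from the same reads. Phf21b, at 3936 bp, had a highest score of 96.6, while Phf5a, at 1323 bp, had 274.

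**Figure D2:**
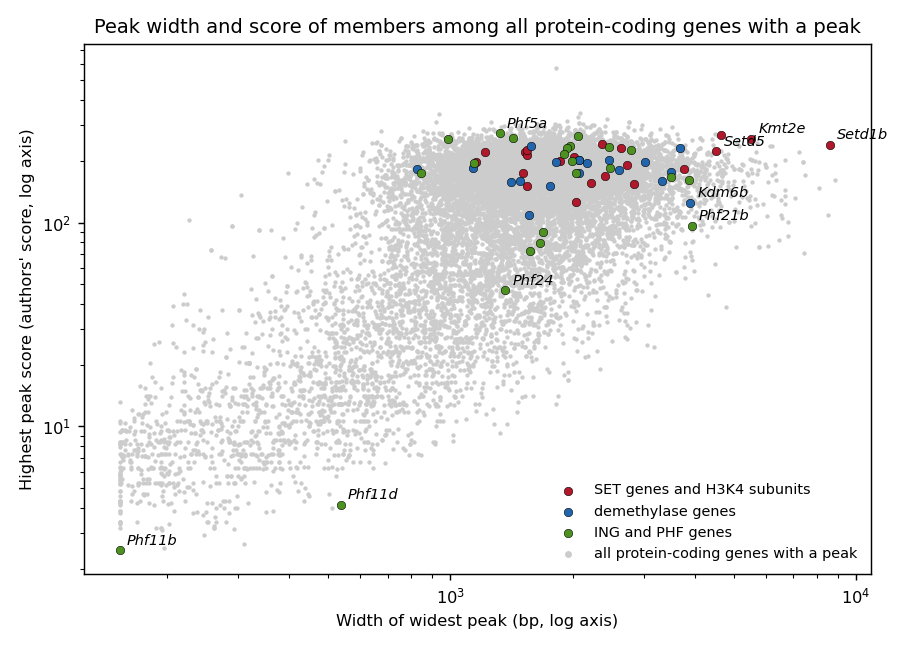
Width of the widest peak (bp, log axis) against the highest peak score (log axis) for protein-coding genes with a peak in 1 library, with the 63 member genes coloured by group. Most members lie in the upper right of the cloud, Setd1b at 8613 bp and a score of 241 at its right edge, and Phf11b, at 153 bp and a score of 2.48, at its lower left corner.

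The promoters shown next mark the extremes of the set. Kmt2d, Phf21b and Phf21a had the widest peaks among members with a peak at a listed start site, and Phf11a and Phf11c had no peak. Phf7 is added for its shared start region, and Kdm6a and Kdm5c for their place on chromosome X; these last were chosen after their values were seen. Each sequence is the 250 bases before the start site in RefSeq's GRCm38.p6 table (mm10), written 5′ to 3′ on the strand of the gene, with CpG dinucleotides in capitals. Methylated and unmethylated CpG look alike in the sequence; in mammals unmethylated CpG is bound by the CXXC domains of KMT2A, KMT2B, KDM2A and KDM2B.
Kmt2d, chr15:98871206-98871455, minus strand: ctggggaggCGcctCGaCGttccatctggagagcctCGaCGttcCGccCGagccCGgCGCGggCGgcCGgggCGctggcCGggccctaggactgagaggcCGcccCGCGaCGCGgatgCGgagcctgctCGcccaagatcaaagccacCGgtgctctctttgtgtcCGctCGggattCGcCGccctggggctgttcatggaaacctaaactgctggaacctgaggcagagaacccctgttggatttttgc
Phf21b, chr15:84855100-84855349, minus strand: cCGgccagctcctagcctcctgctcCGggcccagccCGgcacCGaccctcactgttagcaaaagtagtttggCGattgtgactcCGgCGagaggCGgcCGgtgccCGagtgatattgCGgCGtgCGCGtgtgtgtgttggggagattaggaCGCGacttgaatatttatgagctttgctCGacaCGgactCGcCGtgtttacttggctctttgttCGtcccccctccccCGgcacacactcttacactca
Phf21a, chr2:92185233-92185482, plus strand: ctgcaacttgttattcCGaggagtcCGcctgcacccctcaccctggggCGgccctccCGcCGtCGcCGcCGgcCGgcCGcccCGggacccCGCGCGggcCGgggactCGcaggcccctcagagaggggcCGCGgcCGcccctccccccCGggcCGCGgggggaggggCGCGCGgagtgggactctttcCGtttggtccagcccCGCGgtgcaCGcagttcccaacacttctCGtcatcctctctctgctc
Phf7, chr14:31251316-31251565, minus strand: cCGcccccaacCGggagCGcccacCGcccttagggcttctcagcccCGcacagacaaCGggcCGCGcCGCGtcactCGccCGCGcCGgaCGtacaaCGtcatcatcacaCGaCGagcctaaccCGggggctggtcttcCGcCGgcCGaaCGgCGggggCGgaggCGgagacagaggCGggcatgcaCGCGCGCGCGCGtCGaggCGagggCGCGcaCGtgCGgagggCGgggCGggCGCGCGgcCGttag
Kdm6a, chrX:18162325-18162574, plus strand: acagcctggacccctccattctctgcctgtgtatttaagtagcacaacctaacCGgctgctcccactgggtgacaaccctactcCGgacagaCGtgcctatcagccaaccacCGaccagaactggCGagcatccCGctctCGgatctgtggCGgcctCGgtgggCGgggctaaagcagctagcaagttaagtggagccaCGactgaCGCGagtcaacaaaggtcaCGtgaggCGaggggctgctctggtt
Kdm5c, chrX:152232977-152233226, plus strand: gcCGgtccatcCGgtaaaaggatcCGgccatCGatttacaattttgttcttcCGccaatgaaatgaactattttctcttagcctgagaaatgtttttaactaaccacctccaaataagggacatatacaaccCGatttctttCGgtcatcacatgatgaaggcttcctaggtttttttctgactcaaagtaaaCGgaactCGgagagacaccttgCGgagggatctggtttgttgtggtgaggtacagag
Phf11a, chr14:59297523-59297772, minus strand: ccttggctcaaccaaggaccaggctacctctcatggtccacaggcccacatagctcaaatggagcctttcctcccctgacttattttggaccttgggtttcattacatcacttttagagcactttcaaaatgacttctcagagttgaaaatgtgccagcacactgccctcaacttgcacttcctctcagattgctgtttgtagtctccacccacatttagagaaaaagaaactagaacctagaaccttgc
Phf11c, chr14:59393513-59393762, minus strand: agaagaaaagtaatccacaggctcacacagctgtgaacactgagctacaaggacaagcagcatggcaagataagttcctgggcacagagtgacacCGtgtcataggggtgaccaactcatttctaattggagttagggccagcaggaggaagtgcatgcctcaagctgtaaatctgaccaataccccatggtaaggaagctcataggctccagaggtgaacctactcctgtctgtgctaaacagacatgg

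The printed stretches held 26 CpG at Kmt2d, 22 at Phf21b, 30 at Phf21a, 45 at Phf7, 15 at Kdm6a and 10 at Kdm5c. Phf11a held 0 and Phf11c 1. Setd1b and Kmt2e are not among them, and the listed start of Setd5 lies far from its peaks. Some starts inside a peak were poor in CpG, with 4 in the 300 bases around one start of Phf24 and 9 around one of Kmt5a. Each shared its peak with a start of the same gene that was richer in CpG, with 56 at Phf24 and 51 at Kmt5a. The only listed starts of Phf11b and Phf11d, with 0 and 3 CpG, lay outside a peak but within 1 kb of peaks of 153 bp and 536 bp.

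The table lists 71 start sites for 51 of the 65 genes. Around each, 300 bases were read, 250 before and 50 after the start. A peak lay within 1 kb of a listed start at 48 of the 51 genes, against 63.8% of all protein-coding genes with a listed start. The median was 27 CpG over the 71 starts, against 13 over the 21044 listed starts of all protein-coding genes. Starts with a peak within 1 kb had a median of 27 CpG among members and 21 among all genes. The 6 member starts with no peak within 1 kb had a median of 0.5 CpG, and the 7742 such starts of all genes had 3.

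Of these 6 starts, 4 belonged to genes that had a peak elsewhere over the model. Kdm3a had 3 listed starts, of which the inner one had 0 CpG and no peak, while the outer starts lay in the peak of 2077 bp. Kdm4c had 2, and only the inner start, with 28 CpG, lay in a peak. Phf21a had 2, and only the outer one was marked. The single listed start of Setd5, with 1 CpG, lay 22490 bp from its nearest peak, of 405 bp, and 24672 bp from the wide peak over the lower end of the gene model. The other 2 belonged to Phf11a and Phf11c.

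**Figure D3:**
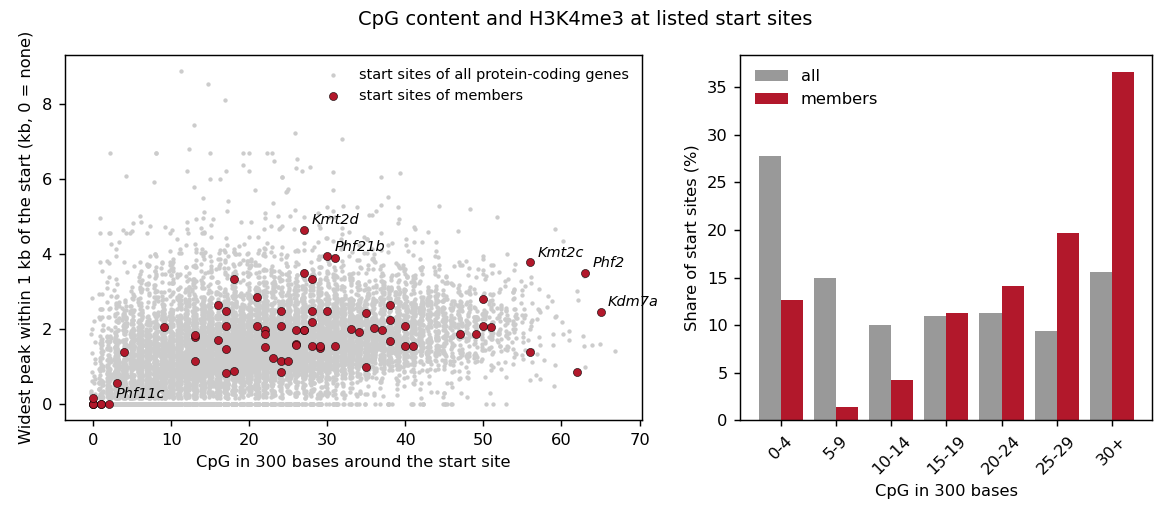
Left, number of CpG in the 300 bases around each listed start site against the widest peak within 1 kb (kb, 0 for none), for all protein-coding genes in grey and the 71 member starts in red. Right, share of starts (%) by CpG number; the medians are 27 for members and 13 for all genes.

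Short motifs were searched on both strands of the same 300 bases. Where starts of a gene lie close together, as at Ing1, these bases overlap. The same match or CpG can then be counted at several starts. The GC box GGGCGG was found at 51 of 71 member starts (71.8%), against 46.7% of all starts and 66.6% of all starts with a peak within 1 kb. CCAAT stood at 42.3% of member starts, against 38.5% of all and 37.3% of those with a peak. The ETS core CCGGAA stood at 19.7%, against 18.9% and 26.8%. TATAAA was found at 3 member starts, of Ing1 and Phf21a (4.23%, against 12.7% and 6.37%). The E-box CACGTG was found at 3, of Kdm4c, Kdm6a and Phf7 (4.23%, against 7.91% and 10.04%). A match is a run of letters and was not tied to the binding of any factor.

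The widest peak of the set lay at Setd1b, which encodes a methyltransferase that writes H3K4me3. It spanned chromosome 5 from 123136652 to 123145264, 8613 bp, with a score of 241, and ranked 2 by width among the 14657 genes with a peak. It also held an end of Rhof, a small GTPase gene, so the rank belongs to the shared region and the width cannot be divided between the genes. Further inside Setd1b lay peaks of 153 bp (score 7.32) and 931 bp (score 37.3). Its paralog Setd1a had 2410 bp (score 170.0), which reached 1272 bp upstream and 1137 bp downstream of the start site, and Orai3 had an end within 1 kb of it. A second peak over Setd1a, of 845 bp with a score of 68.4, held the start of the neighbouring Hsd3b7.

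The 4 catalytic KMT2 genes differed in the shape of their marks. Kmt2d and Kmt2c encode the enzymes that write H3K4 monomethylation at enhancers. Kmt2d had a peak of 4633 bp (rank 115, score 163) that began 1029 bp inside the upper end of its model and covered its listed start, reaching 1843 bp upstream and 2789 bp downstream of it. Its highest score, 267, came from another peak of 1402 bp at the opposite end of the model, which held a start of Prkag1. Kmt2c had a peak of 3763 bp (rank 319, score 184), which reached 1746 bp upstream and 2016 bp downstream of its start and held the start of the noncoding gene 4831440E17Rik on the other strand, 1014 bp away.

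Kmt2a and Kmt2b, which encode the trithorax-type enzymes known for keeping Hox genes active, had narrower single peaks. The widest peak of Kmt2a measured 2018 bp with a score of 208. It was followed, after a gap of 66 bp, by a peak of 1797 bp (score 153), and together they spanned 3881 bp. With peaks closer than 1 kb merged, Kmt2a had 4521 bp, more than the 3763 bp of Kmt2c. Kmt2b had 2368 bp with a score of 243, over its upper end. Setd7, which encodes an H3K4 monomethyltransferase with many other substrates, had 6 peaks, of which the widest measured 2836 bp (score 155) and the other 5 were narrow.

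The subunit genes Wdr5 and Ash2l had narrower widest peaks than each of the 7 H3K4 methyltransferase genes, an order that ended with peaks closer than 1 kb merged, where Wdr5 had 2557 bp, Ash2l 2009 bp and Setd1a 2410 bp. Wdr5 had 1866 bp (score 199.7). Ash2l had no peak within 1 kb of an end of its model. The marks of Ash2l lay 5640 bp or more inside the upper end, as peaks of 747 bp (score 197) and 1156 bp (score 125) separated by 106 bp.

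SET-domain genes whose products are not settled H3K4 methyltransferases included some of the widest marks. Kmt2e, whose product binds H3K4me3 and has no known methyltransferase activity, had a single peak of 5521 bp (rank 52, score 258) that also held the start of the noncoding gene 5031425E22Rik. Setd5, a gene mutated in human intellectual disability, had 4525 bp (rank 134, score 223). That peak also held an end of Gt(ROSA)26Sor, the noncoding gene of the Rosa26 locus used for transgene insertion in mice. Setd3, whose product methylates a histidine of actin, had 1542 bp beside a second peak of 1143 bp, and its peak held an end of Ccnk. Setd4 had 1544 bp (score 152) and Setd6, whose product methylates the NF-kB subunit RELA, had 1545 bp (score 226).

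Genes of the enzymes for other marks ranged from 1218 to 2730 bp in their widest peak. Setd2, which encodes the enzyme of H3K36 trimethylation, had 2218 bp with a score of 156. Ash1l, which encodes an H3K36 dimethyltransferase, had 2730 bp with a score of 192, in a peak that held an end of Dap3. The Polycomb enzymes Ezh1 and Ezh2, which methylate H3K27, had 1218 bp and 1525 bp with scores of 222 and 222. Of the H4K20 enzymes, Kmt5b had 2632 bp (score 233), Kmt5c 1512 bp (score 175) and Kmt5a 2043 bp (score 91.5) around inner start sites, with a stronger peak of 863 bp (score 127) at its outer start.

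**Figure D4:**
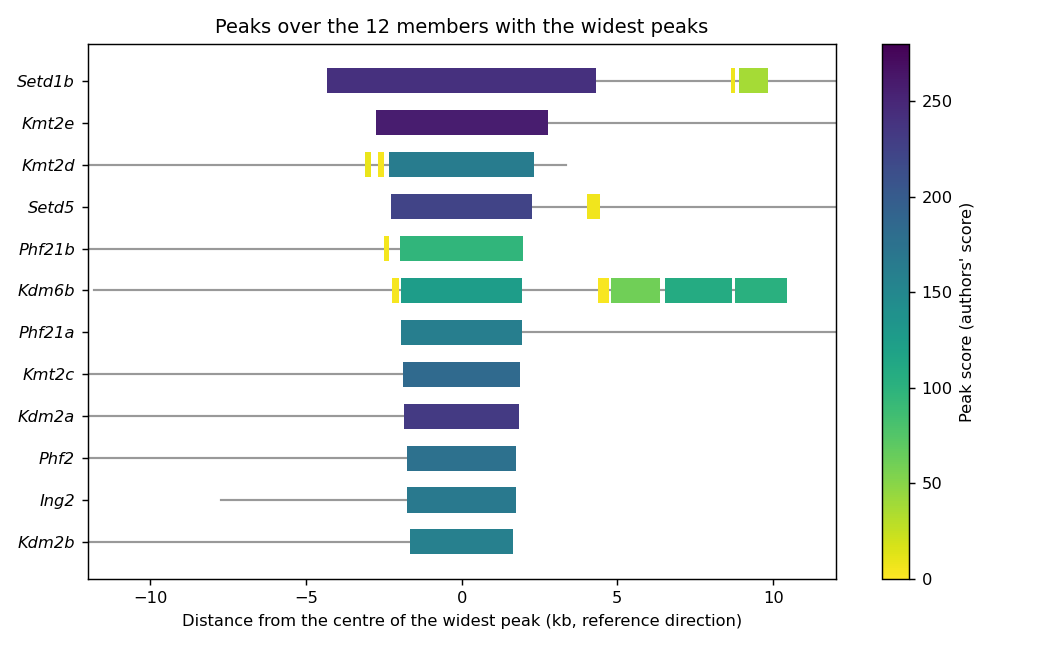
H3K4me3 peaks (bars, coloured by score) over the 12 members with the widest peaks, drawn by distance in kb from the centre of the widest peak in the reference direction; grey lines are the gene models. Setd1b has a block of 8613 bp with 2 smaller peaks, Kmt2e a single block of 5521 bp, and Kdm6b many blocks. The drawing is cut at 12 kb to each side, so the lowest of the 7 Kdm6b peaks and distant peaks of some other genes are not shown.

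Among the demethylase genes the widest peak lay at Kdm6b, and it was the most divided. Kdm6b encodes an H3K27 demethylase that acts on developmental and inflammatory genes. Its 7 peaks covered 10581 bp in all, more than any other member. The widest, of 3897 bp with a score of 125, lay inside the model, followed by blocks of 1586 bp, 2157 bp and 1676 bp up to the upper end. Gaps between these 3 blocks were 144 bp and 107 bp.

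Of the KDM2 and KDM7 type genes, 4 of 5 had peaks above 2038 bp, the upper quartile of all genes with a peak. Kdm2a and Kdm2b encode H3K36 demethylases with CXXC domains, and KDM2B brings a Polycomb complex to CpG islands. Kdm2a had 3675 bp (rank 367, score 233), in a peak that held the start of 9430078G10Rik. Kdm2b had 5 peaks: 3327 bp (score 159) over its outer starts, 1845 bp (score 101) over inner starts with 47 and 49 CpG, 1543 bp (score 41.1) between them, and narrow peaks of 165 bp and 179 bp. Phf2 and Kdm7a, which encode demethylases of H3K9 and related lysines, had 3493 bp (score 177) and 2454 bp (score 204). The peak of Phf2 held 2 starts of its antisense gene Phf2os1, the nearer 66 bp from its own. Phf8, on chromosome X, had 1560 bp.

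The KDM3 and KDM4 genes, whose enzymes act on H3K9 and, for KDM4, also H3K36, were next compared with the median of all genes. By the widest single peak, both KDM3 genes lay above the 1515 bp median of all genes and 3 of the 4 KDM4 genes below it. With peaks closer than 1 kb merged, Kdm4a (2248 bp), Kdm4b (2229 bp) and Kdm4c (2170 bp) lay above the merged median of 1816 bp, and Kdm4d (1699 bp) below. Kdm3b had 3009 bp (score 198) and Kdm3a 2077 bp (score 202). Kdm4c had 2170 bp (score 196), all of it 8627 bp inside the lower end of its model. Kdm4b had 1413 bp (score 158) and Kdm4a 1134 bp (score 186), beside blocks of 302 bp and 635 bp with gaps of 81 bp and 96 bp. Kdm4d, a gene known for expression in testis, had 825 bp (score 184) just outside its model, at the start of Cwc15 on the other strand. A further peak of 788 bp (score 139) covered its own listed start, 86 bp away.

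Of the autosomal H3K4 demethylase genes, Kdm5a and Kdm5b lay above the upper quartile of 2038 bp, and Kdm1a and Kdm1b near the median of all genes with a peak. Kdm5a had 2605 bp (score 181), shared with a start of Ccdc77. Kdm5b had 2073 bp (score 202), in a peak that held an end of Mgat4e. Kdm1a, which encodes the flavin-dependent enzyme LSD1 that removes H3K4 mono- and dimethylation, had a single peak of 1487 bp (score 161). Its paralog Kdm1b had 1580 bp (score 237) and a second block of 554 bp. Kdm8, which encodes a JmjC hydroxylase, had 1819 bp (score 198).

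Kdm6a and Kdm5c stood at the top of chromosome X by score. Their products remove H3K27 and H3K4 methylation, and both genes are known to escape X inactivation in female mice. Among the 478 protein-coding genes of chromosome X with a peak, Kdm6a had the highest score, 174, and Kdm5c the next, 151, close to the 148 of Ddx3x at rank 3. The X genes had a median of 70.8 and the autosomal genes 155. The other 2 members on X were Phf8, with a highest score of 109 (rank 30 of the 478), and Phf6, with 72.7 (rank 234). By width Kdm6a (2078 bp) ranked 48 and Kdm5c (1763 bp) ranked 89 on X.

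The partners of these genes on chromosome Y, which are not among the 65, carried marks too. Of the 7 peaks on Y, 1 lay at Kdm5d (969 bp, score 34.0) and 1 at Uty, the partner of Kdm6a (1247 bp, score 44.9). Others lay at Eif2s3y and Ddx3y. How many copies of X the cells held is not given in the labels, and its part in the X scores was not tested.

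**Figure D5:**
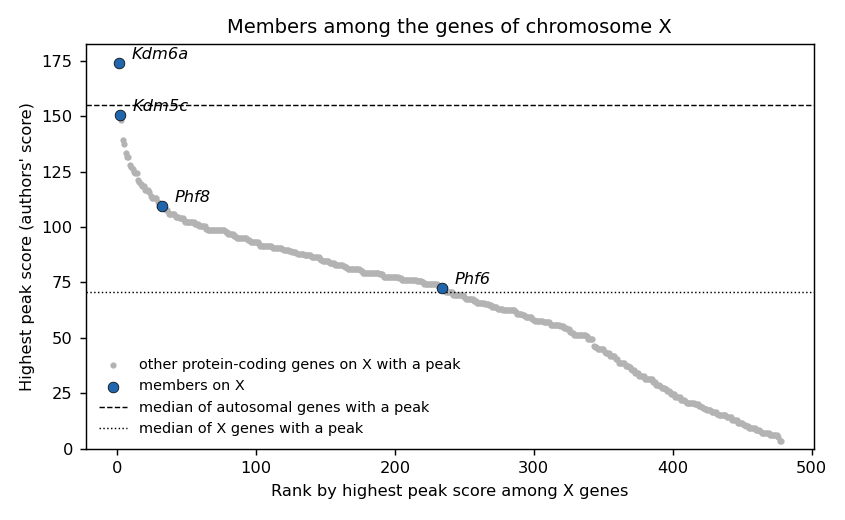
Highest peak score of each of the 478 protein-coding genes on chromosome X with a peak, in order of rank, with the 4 members in blue. Kdm6a (174) and Kdm5c (151) hold ranks 1 and 2; the dashed and dotted lines are the medians of autosomal (155) and X genes (70.8).

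The 5 ING genes all had a peak at an end. ING1 and ING2 belong to deacetylase complexes, and ING3, ING4 and ING5 to acetyltransferase complexes. Ing2 had the widest single peak, 3490 bp with a score of 167, in a peak that held the start of the noncoding gene AA386476, 232 bp from its own. Ing1 had 1972 bp (score 236) among 4 peaks, and its 5 listed starts each lay in a peak. Ing4 had 1690 bp with the lowest score of the 5, 90.004. Ing3 (1143 bp, score 196) and Ing5 (986 bp, score 257) had narrow widest peaks, with a smaller block beside each. With peaks closer than 1 kb merged, the ING widths were 4419 bp at Ing1, 3490 bp at Ing2, 3417 bp at Ing5, 1852 bp at Ing3 and 1690 bp at Ing4, so that Ing1 was then the widest and Ing5 no longer narrow.

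Among the PHF genes the paralogs Phf21b and Phf21a had the widest peaks. PHF21A is a subunit of the LSD1 complex and binds H3K4 when it is unmethylated. Phf21b had 3936 bp (rank 252, score 96.6) and Phf21a 3877 bp (rank 268, score 161). The peak of Phf21a reached 2943 bp upstream and 933 bp downstream of its outer listed start. It also covered the lower end of the gene model, further upstream, so its extent depends on the start used. With 2 listed starts, Phf21a is not among the genes counted next. Of the 31 members with a single listed start inside a peak, 27 had the longer part downstream (87.1%, against 84.9% of all such genes). Their medians were 659 bp upstream and 1442 bp downstream, against 449 bp and 1021 bp.

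Of the PHF genes outside the demethylase group, next in width was Phf12 (2780 bp, score 227), whose product works with the SIN3 deacetylase complex. Phf1 followed (2474 bp, score 185), whose product joins PRC2 and binds H3K36me3. Phf23 had 2461 bp (score 235), Phf7 2062 bp (score 265) and Phf3 2036 bp (score 176). PHF7 is a reader of the male germ line in flies and mice. The peak of Phf7 held the start of Bap1, which encodes a histone H2A deubiquitinase, on the other strand, 174 bp away, so the mark cannot be assigned to Phf7 alone. The other PRC2-associated gene, Phf19, had 1663 bp and a score of 79.3.

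The narrowest marks among the ING and PHF genes lay at Phf11b (153 bp, score 2.48), Phf11d (536 bp, score 4.13), Phf20 (846 bp, score 175), Ing5 (986 bp) and Ing3 (1143 bp). With peaks closer than 1 kb merged, Phf20 had 1886 bp, Ing5 3417 bp and Ing3 1852 bp. The 4 Phf11 genes lie side by side on chromosome 14. Phf11a and Phf11c had no peak, and the 153 bp of Phf11b equals the smallest width in the whole list. The 61 other members all had a peak with a score of at least 46.5, the value of Phf24. Phf24, a gene known for expression in neurons, had no peak at an end of its model but 1364 bp over both listed start sites inside it. Of the members not described elsewhere, Phf20l1 had 1428 bp (score 261), Phf6 1572 bp, and Phf13 1910 bp over its start with a further peak of 1129 bp (score 216) after a gap of 140 bp.

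Some peaks over the models held a neighbour's start or end, and for some genes this was the widest or strongest peak. Phf10, a remodeller subunit gene, had its widest peak (1943 bp, score 232) at the end opposite to its start, at starts of Wdr27 and 1600012H06Rik, while its own start lay in a peak of 846 bp (score 149) with 62 CpG. A peak of Phf13 (1389 bp, score 216) held a start of Thap3, and one of Phf23 (1218 bp, score 163) a start of Dvl2. Neither was the widest or the strongest peak of its gene. The widest peak of Phf14 (1993 bp, score 150) held a start of Ndufa4 379 bp from its own, and an inner start of Phf14 had 1453 bp with a higher score, 199.8. The widest peak of Phf1 held an end of Kifc5b. Phf5a, a splicing factor gene, had 1323 bp with the highest score of the set, 274, and 943 bp over its own end.

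In all, the widest peak of 17 of the 63 genes lay within 1 kb of an end of another protein-coding gene, against 24.5% of all genes with a peak. In 12 of them the neighbour's end lay in the peak. Listed starts of both the member and a coding or noncoding neighbour lay in the peak at 6 members. These were Ing2, Kdm2b, Kmt2c, Phf14, Phf2 and Phf7, with the starts on opposite strands each time. The 14 members with no listed start could not be counted here, among them Kdm2a, Kdm5a and Kmt2e, whose peaks held a neighbour's start. The counts of 12 and 6 were not taken over all genes with a peak, so they are descriptions without a baseline.

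Marks were often split by narrow gaps. Of the 63 genes, 33 had neighbouring peaks less than 200 bp apart (52.4%), against 36.3% of all genes with a peak. Pairs were counted over the whole extended model, the members have longer models, and this share was not taken by length class. There were 3 or more peaks over 17 of the 63, against 22% of all. Of the 71 listed starts, 58 lay in a peak and 5 in a gap with peaks on both sides, against 54.9% and 3.81% of all starts. Those 5 starts belonged to Ing3 (2 starts, gap 180 bp), Kdm6a (96 bp), Phf20 (84 bp) and Kmt5c (466 bp). The nearest peak began 2 to 17 bp from 4 of the 5 starts.

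Genes of the same pathways outside the symbol rule were mostly marked as well, with 67.8% as the share of all protein-coding genes. Of 11 partners of the H3K4 methyltransferases all had a peak over the model, the widest at Paxip1 (2490 bp), Hcfc1 (2174 bp) and Wdr82 (2069 bp). All 7 PRC2 subunit genes had one, led by Jarid2 (4736 bp), Aebp2 (2269 bp) and Suz12 (2237 bp). Of 19 other lysine methyltransferase genes 18 had one, with Prdm16 (6040 bp), Nsd3 (2905 bp) and Nsd2 (2618 bp) in front. The exception was Smyd1, an enzyme gene of heart and skeletal muscle.

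All 9 other JmjC genes had a peak, the widest at Hspbap1 (2697 bp), Jmjd1c (2656 bp) and Jmjd6 (2388 bp). So did all 28 genes of other readers of histone methylation, led by L3mbtl3 (3648 bp), Trp53bp1 (3112 bp) and Bptf (2910 bp). Of these 28, 23 had a peak at an end, where 62.1% of all protein-coding genes have one. Cbx7, Spin1, Cdyl, Zmynd8 and Rag2, a recombinase gene of lymphocytes, had peaks only inside their models. The peak of Rag2 measured 827 bp with a score of 166, and the widest of Zmynd8 834 bp with a score of 17.8. Whether these peaks hold a start or end of another gene was not examined. All 9 arginine methyltransferase genes had a peak over the model, led by Prmt6 (2492 bp), Prmt7 (2233 bp) and Carm1 (1482 bp). Prmt8, known for expression in brain, had only peaks of up to 310 bp with a highest score of 6.28.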

How the data were processed

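One H3K4me3 library and 1 input library of sorted NOS1+ enteric neurons were described; 1 peak list was analysed, that of the H3K4me3 library. Per the submitters' processing notes, BWA, Picard and MACS2 were among the tools and mm10 was the build; their roles and versions are not recorded there. The peaks came from MACS2 and a paired-end library, per the file headers. The score of each peak is the value in the authors' deposited list; no source used here gives its scale or the calling threshold, so scores were used within this list only. Depth is unknown, and low depth narrows, splits and loses peaks.

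Gene models and 300-base promoters came from RefSeq tables of GRCm38.p6, the assembly behind mm10; 51 of 65 members matched a promoter. An overlap of 1 bp sufficed to count a peak for a gene, over the model extended by 1 kb or within 1 kb of either end. Widths and scores are those of the widest and the highest-scored peak. Exact 95% Clopper-Pearson intervals cover counting over genes only. The overlap code was tested on simulated data. Members, groups and lists were chosen with earlier results of these data known. All SET, subunit and demethylase genes were named, and of ING and PHF genes the 8 widest, the 5 narrowest with a peak and those without, together with members sharing a peak; others, such as Phf6 and Phf24, were named after their values were seen. No test was run. Alternatives were other windows, score and width filters, merged peaks, isolated genes and listed start sites. Python 3.11.15, pandas 2.3.3 and scipy 1.17.1 were used.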

Additional observations from a re-analysis of the deposited data

How the results depend on the processing

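With the 25% of peaks that had the highest scores, the share of the 65 genes with a peak over the model was 81.5% and at an end 76.9%, against 37.7% and 34.9% of all protein-coding genes; the genes lost included Kdm6b, Phf21b, Phf24, Ing4 and Phf8. When a peak had to cover the end of the model, the share at an end was 72.3%, against 48.1%. Merging peaks that lay closer than 1 kb gave a median width of 2516 bp, against 1816 bp. Among the 29 members with no other protein-coding gene end within 2 kb, the median score was 176, against 136. Every other value of these 4 summaries under the 9 settings lay inside the interval of the reported one, and in each setting run the members' value was above that of all protein-coding genes. Merging moved the width of 17 members by over 1.5 times: Ing5 (3417 bp), Phf13 (4405 bp), Ing1 (4419 bp), Kmt2a (4521 bp), Phf20 (1886 bp), Kdm4d (1699 bp), Kdm4a (2248 bp), Setd3 (2882 bp), Phf5a (2353 bp), Ash2l (2009 bp), Phf1 (4070 bp), Kmt5c (2486 bp), Ezh2 (2477 bp), Ing3 (1852 bp), Phf8 (2516 bp), Kdm4b (2229 bp) and Kdm6b (6073 bp). Orders of width within the KMT2, KDM4 and ING genes changed with it. The unknown depth limits every width and every absence of a peak. No paired analysis was possible because there is 1 library of each kind and no test.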
